A study of Mus musculus with 12 samples.

Results

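The genes described here lie next to Hddc3 on mouse chromosome 7. They are the 6 genes Sema4b, Ngrn, Rccd1, Unc45a, Hddc3 and Man2a2, out of 21556 genes in the deposited count table. They were chosen from their counts in Nox4 KO against WT libraries, in control and after TGF-β2, together with their position in a window that spans Sema4b to Man2a2 (GRCm38, GENCODE M21), so the Nox4 KO against WT values of these 6 genes are a description and carry no test. The rule of the choice did not use their response to TGF-β2 within each genotype, which was tested. These tests use the same libraries as the choice, and earlier results of these data were known, so they are not independent of it.

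RNA was sequenced from primary fibroblasts of mouse abdominal skin in 12 libraries, 3 in each of 4 groups. WT control and WT stimulated cells came from C57BL/6 mice, and Nox4 KO control and Nox4 KO stimulated cells came from B6.129-Nox4tm1Kkr/J mice, in which the Nox4 gene is disrupted in every cell of the animal. All cells were plated, starved for 24 h and then either left without stimulation or given TGF-β2 at 10 ng/ml for 24 h. The series describes the replicates as biological but not whether each came from a separate animal, so p-values measure the spread between these libraries. Heterozygous mice were crossed to found the WT and Nox4 KO lines, which were then bred apart. The strain name of the KO shows that its allele was made outside the C57BL/6 background and Nox4 lies on the same chromosome as the 6 genes, so foreign DNA linked to Nox4 and the loss of NOX4 itself cannot be told apart in these counts.

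Hddc3 encodes MESH1, a hydrolase related to the bacterial enzymes of the stringent response, which removes phosphate from NADPH in animal cells. NOX4, the gene product missing in the KO, is an oxidase that uses NADPH to make hydrogen peroxide, and TGF-β is the growth factor that turns skin fibroblasts into contractile myofibroblasts. Among the neighbours, Unc45a encodes a chaperone that works with HSP90 in the folding of myosin, and Man2a2 encodes a Golgi α-mannosidase that trims N-glycans. Sema4b encodes a membrane-bound semaphorin of class 4, Ngrn a mitochondrial protein needed for the maturation of the 16S ribosomal RNA, and Rccd1 a protein with RCC1 repeats that binds the histone-directed enzyme KDM8.

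The 6 genes spread over both strands. Sema4b (ENSMUSG00000030539) runs from 80186841 to 80226527 on the plus strand, followed by Ngrn (ENSMUSG00000047084) from 80261215 to 80265374, also on the plus strand. Rccd1 (ENSMUSG00000038930) lies on the minus strand from 80293229 to 80324454 and Unc45a (ENSMUSG00000030533) on the minus strand from 80325292 to 80341005. Hddc3 (ENSMUSG00000030532) starts on the plus strand at 80343104 and ends at 80350547, and Man2a2 (ENSMUSG00000038886) lies on the minus strand from 80349097 to 80371375. Hddc3 and Unc45a are thus read away from each other, with starts 2099 bp apart, whereas Hddc3 and Man2a2 are read towards each other and their ends overlap.

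This overlap covers 1451 bp of the gene spans and 427 bp of annotated exon (80350121 to 80350547), which is 14.0% of the merged exon length of Hddc3 and 6.34% of that of Man2a2. The shared exon bases belong to 1 of 6 protein-coding Hddc3 transcripts and to 1 of 3 Man2a2 transcripts. Rccd1 shares 670 bp of exon with Prc1, a gene of the plus strand that is not among the 6. Here the whole span of Prc1 (21810 bp) lies inside that of Rccd1. The library kit named in the methods does not mark the strand of the RNA and the strand setting of the counting is not stated, so how reads in these shared bases were assigned is not known.

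**Figure D1:**
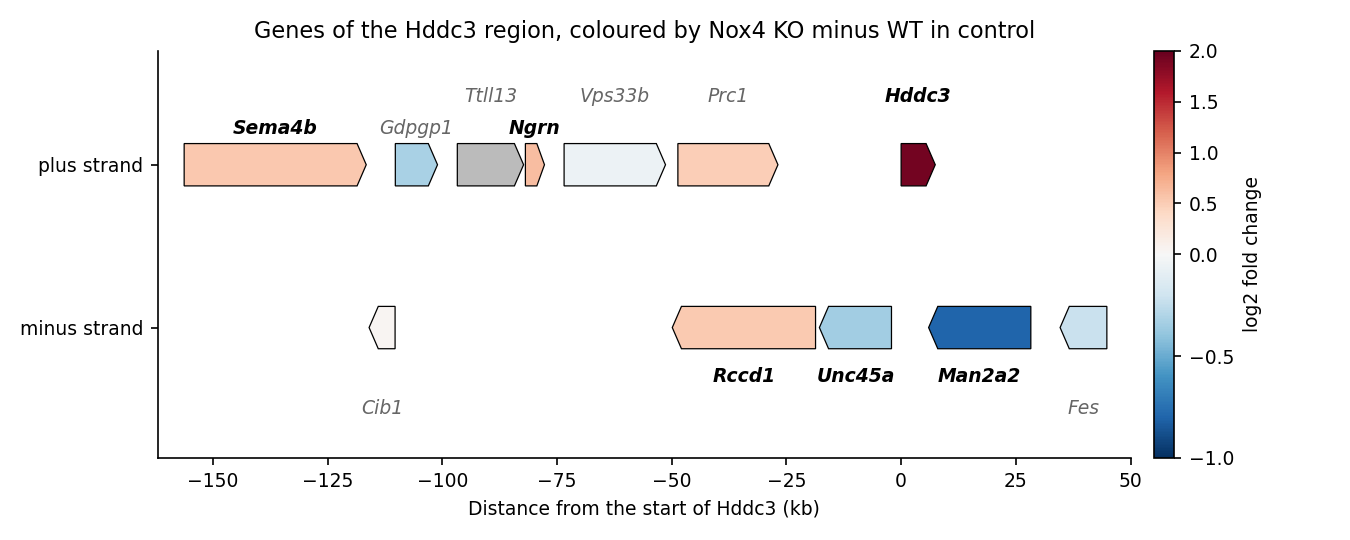
Map of the 12 genes of the count table in the region, with the distance from the start of Hddc3 in kb on the horizontal axis and the strand on the vertical axis. Each arrow is a gene span pointing in the direction of transcription, coloured by the log2 fold change of Nox4 KO against WT in control, with the 6 chosen genes in bold. Hddc3 (1.93) and Man2a2 (-0.80), which overlap at their ends, are at opposite ends of the colour scale, and Ttll13, grey, was too low to be tested.

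Promoter sequences are shown for Hddc3, for Unc45a, which starts beside it on the other strand and differed in the opposite direction, and for Rccd1 and Ngrn, which lie further away and differed in the same direction as Hddc3. The RefSeq promoter table for GRCm38.p6 held windows from 250 bases before to 50 bases after the start for 5 of the 6 genes. Man2a2 had no window in it. Sema4b, which also lies further away and was higher in KO, had 2 windows, and their sequences are not shown. The starts are those of RefSeq, and the Unc45a window lies inside the GENCODE span of the gene, so the distance of 2099 bp, which is between the outermost GENCODE starts, is not the distance between these windows. Each sequence is written 5′ to 3′ on the strand of its gene, and capitals mark the letters of a searched motif, found on either strand.

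The Hddc3 window is chr7:80342887-80343186 on the plus strand, the Unc45a window is chr7:80340170-80340469 on the minus strand, the Rccd1 window is chr7:80324405-80324704 on the minus strand and the Ngrn window is chr7:80260965-80261264 on the plus strand.
Hddc3: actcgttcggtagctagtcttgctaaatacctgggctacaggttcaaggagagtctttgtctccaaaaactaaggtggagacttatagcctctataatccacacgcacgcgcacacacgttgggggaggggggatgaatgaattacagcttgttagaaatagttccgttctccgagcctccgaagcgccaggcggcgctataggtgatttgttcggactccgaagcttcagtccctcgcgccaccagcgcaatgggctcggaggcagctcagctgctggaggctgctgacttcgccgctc
Unc45a: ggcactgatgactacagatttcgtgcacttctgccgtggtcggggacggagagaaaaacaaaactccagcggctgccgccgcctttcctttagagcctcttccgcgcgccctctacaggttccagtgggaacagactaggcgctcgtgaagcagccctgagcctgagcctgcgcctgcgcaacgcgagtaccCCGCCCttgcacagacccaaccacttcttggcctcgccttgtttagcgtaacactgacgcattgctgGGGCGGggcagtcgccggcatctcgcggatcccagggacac
Rccd1: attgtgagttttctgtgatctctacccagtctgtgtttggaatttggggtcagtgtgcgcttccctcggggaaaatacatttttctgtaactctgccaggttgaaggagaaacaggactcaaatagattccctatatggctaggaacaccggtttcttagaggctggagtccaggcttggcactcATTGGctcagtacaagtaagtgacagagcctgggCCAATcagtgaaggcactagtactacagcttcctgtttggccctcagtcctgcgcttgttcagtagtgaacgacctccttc
Ngrn: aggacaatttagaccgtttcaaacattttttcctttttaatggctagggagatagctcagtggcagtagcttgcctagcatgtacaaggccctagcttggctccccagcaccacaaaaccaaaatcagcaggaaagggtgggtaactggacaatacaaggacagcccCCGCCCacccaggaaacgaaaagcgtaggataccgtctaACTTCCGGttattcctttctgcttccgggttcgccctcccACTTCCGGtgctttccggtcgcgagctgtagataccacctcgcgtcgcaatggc

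The motifs searched on both strands were the CCAAT box, the TATAAA box, the GC box GGGCGG, the E-box CACGTG, the cyclic AMP element TGACGTCA, the ETS site CCGGAAGT, the SMAD element CAGACA and the AP-1 site TGACTCA, and none of these contains another. The Hddc3 window held none of them and had a GC content of 55.0%, near the median of 52.7% over all 32851 windows. The Unc45a window held GGGCGG at 2 places, a motif found in 35.7% of all windows. The Rccd1 window held CCAAT at positions -65 and -31 from the start, a motif found in 37.4% of all windows, and had 5 CpG dinucleotides against 20 in the Hddc3 window and 25 in the Unc45a window. The Ngrn window held GGGCGG once and CCGGAAGT at positions -44 and -4, and 3.89% of all windows held CCGGAAGT. The first Sema4b window held GGGCGG at positions -54 and -49. The second held GGGCGG at -83 and -25 and CACGTG, found in 7.15% of all windows, at -102. These are letter matches in these windows only.

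Totals per library were between 35118344 and 43796260 counts. All 9 fibroblast markers examined, collagen genes and Pdgfra among them, reached 1 RPKM (a count scaled by exon length and by the library total) in every group. Summed macrophage markers were between 21.3 and 120 RPKM in the control libraries and between 13.9 and 83.5 RPKM after TGF-β2, with the genotypes overlapping in both conditions, and their part in the values below was not tested. Nox4 counts were still present in the KO libraries. They were between 102 and 207 in KO control against 203 to 398 in WT control, and between 782 and 1175 in KO against 1314 to 2471 in WT after TGF-β2, so the 2 genotypes overlapped in control and not after TGF-β2. From which Nox4 exons these reads came cannot be seen in gene-level counts.

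Hddc3 had the largest difference between genotypes of the 6 genes, and the lowest level per exon length in both WT groups. In WT control its counts were 100, 132 and 141, corresponding to 0.931, 1.13 and 1.14 RPKM. In Nox4 KO control they were 581, 555 and 353, or 4.96, 4.35 and 3.17 RPKM. Every KO control library was at least 2.78-fold above every WT control library, and the ratio of the means was 3.89. After TGF-β2 the WT libraries had 0.906, 1.06 and 0.790 RPKM and the KO libraries 2.93, 2.46 and 2.58 RPKM. The groups again did not overlap, with a ratio of means of 2.90. On the log2 scale the KO libraries differed from WT by 1.93 ± 0.20 (SE) in control and 1.56 ± 0.17 (SE) after TGF-β2, which ranked 19 among 10767 and 14 among 10439 tested genes by absolute size. In such bulk samples a difference in the number of cells that express a gene and a difference in RNA per cell cannot be told apart.

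Unc45a, the divergent neighbour of Hddc3, differed in the opposite direction. It had 22.0, 21.5 and 18.9 RPKM in WT control and 17.3, 18.1 and 14.9 RPKM in KO control. The lowest WT library exceeded the highest KO library by only 1.04-fold. After TGF-β2 the WT libraries had 23.0, 23.5 and 21.2 RPKM and the KO libraries 16.2, 16.7 and 16.5 RPKM, at least 1.27-fold apart. The log2 fold change was -0.35 ± 0.12 (SE) in control and -0.43 ± 0.08 (SE) after TGF-β2, and the mean in KO was 80.6% and 73.1% of that in WT.

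Man2a2, the convergent neighbour, was also lower in the KO libraries. Its levels were 21.7, 19.7 and 21.5 RPKM in WT control and 14.5, 12.3 and 10.4 RPKM in KO control, which do not overlap. After TGF-β2 it had 12.1, 7.49 and 12.4 RPKM in WT and 7.38, 6.50 and 5.83 RPKM in KO. Here WT replicate 2 stood apart from the other two WT libraries and was 1.02-fold above the highest KO library. With libraries scaled by relative log expression (RLE) instead of by their totals, this pair of groups overlapped and 1 of the 6 genes in place of 2 was lower in stimulated KO libraries. The log2 fold change was -0.80 ± 0.13 (SE) in control and -0.69 ± 0.23 (SE) after TGF-β2.

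Sema4b, Ngrn and Rccd1, which lie further from Hddc3, were higher in the KO libraries. Sema4b had 3.70, 3.39 and 2.86 RPKM in WT control and 5.96, 4.94 and 4.02 RPKM in KO control, and 1.99, 2.13 and 2.02 RPKM in WT and 3.41, 3.03 and 3.55 RPKM in KO after TGF-β2. Its groups were 1.09-fold apart at the nearest libraries in control and 1.42-fold after TGF-β2. The corresponding log2 fold changes were 0.55 ± 0.18 (SE) and 0.72 ± 0.12 (SE), respectively.

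Ngrn was nearly constant among the KO control libraries, with 15.5, 15.7 and 15.8 RPKM against 9.64, 9.74 and 10.6 RPKM in WT control. With TGF-β2 the values were 8.96, 12.3 and 9.95 RPKM in WT and 14.6, 13.1 and 15.6 RPKM in KO, with the nearest libraries 1.07-fold apart. The log2 fold change was 0.61 ± 0.07 (SE) in control and 0.50 ± 0.13 (SE) after TGF-β2. Ngrn thus had the smallest SE of the 6 genes in control.

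Rccd1 had 3.23, 3.92 and 4.29 RPKM in WT control and 5.65, 5.17 and 6.00 RPKM in KO control. After TGF-β2 it had 3.95, 4.03 and 4.19 RPKM in WT and 6.29, 5.67 and 7.02 RPKM in KO. The groups were 1.21-fold and 1.35-fold apart at the nearest libraries. The log2 fold change was 0.52 ± 0.11 (SE) in control and 0.66 ± 0.12 (SE) after TGF-β2. Prc1, with which Rccd1 shares exon bases, overlapped between the genotypes in both conditions, its control libraries spanning 3.95 to 13.4 RPKM in WT and 6.95 to 20.5 RPKM in KO.

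**Figure D2:**
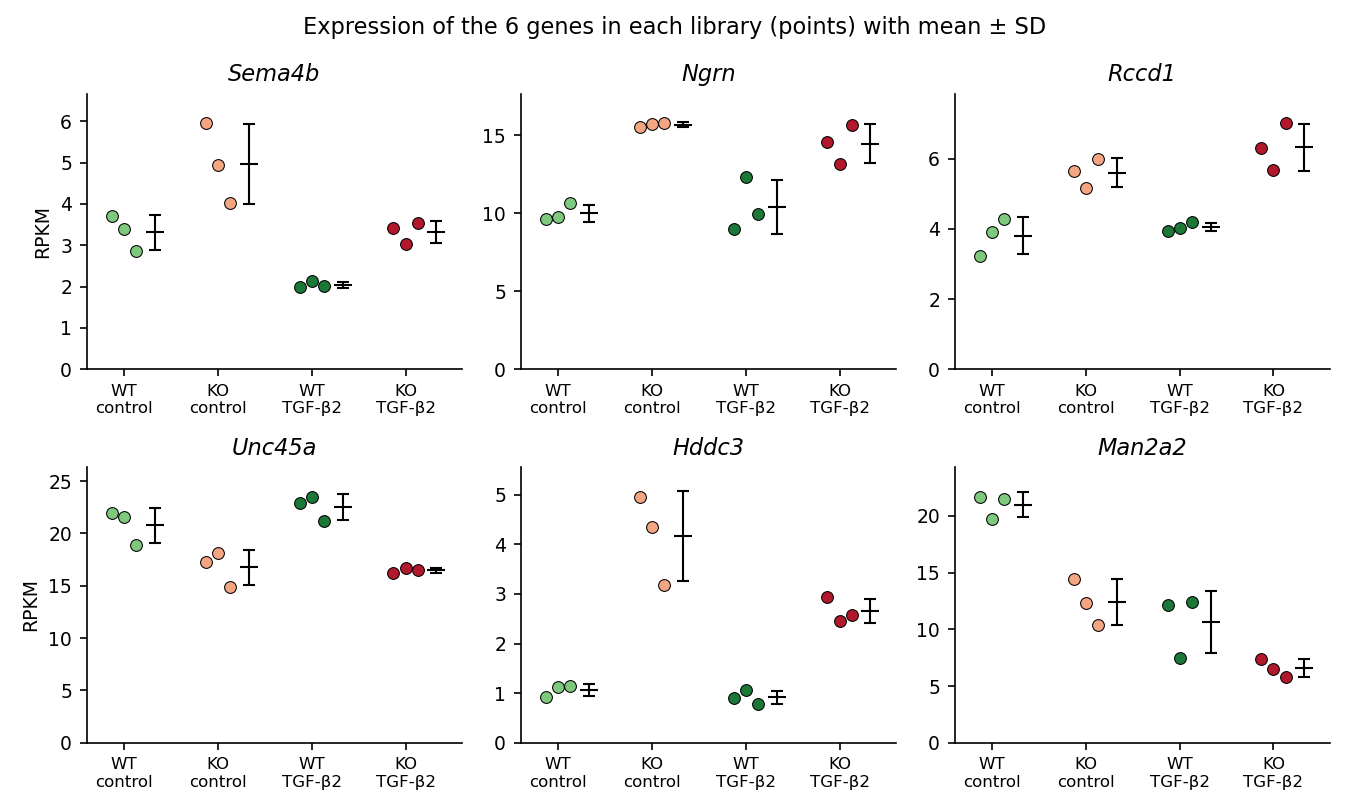
RPKM of each of the 6 genes in the 12 libraries, with the 4 groups on the horizontal axis, 1 point per library, and the mean ± SD (n = 3) beside the points. Sema4b, Ngrn, Rccd1 and Hddc3 are higher and Unc45a and Man2a2 lower in every KO library than in every WT library of the same condition, with the nearest Man2a2 libraries after TGF-β2 1.02-fold apart.

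All 6 genes were non-overlapping between the genotypes in both conditions, 4 of them higher and 2 lower in KO. The genes were chosen on this contrast, so nothing is read from that count. Over all tested genes, 10.9% were non-overlapping and higher in KO in control and 2.74% non-overlapping and lower, against 4.16% and 5.92% after TGF-β2. In both conditions together 0.523% of 10316 genes were higher and 0.204% lower in this way. The split between higher and lower in control moved with the scaling, since 1174 genes were higher and 295 lower by library totals and 595 were higher and 695 lower with TMM (trimmed mean of M-values) scaling. No gene of the whole table passed an adjusted p-value of 0.05 in edgeR's quasi-likelihood test for KO against WT, that is 0% of 10767 genes in control and 0% of 10439 after TGF-β2. Without adjustment 597 genes (5.54%) in control and 337 (3.23%) after TGF-β2 had a p-value under 0.05. These shares are near or below what this limit gives where no gene differs. DESeq2 called 9 higher and 19 lower in control and 8 in each direction after TGF-β2.

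The difference between genotypes changed the order of the genes by level per exon length. In WT control the means were 20.97 ± 1.10 RPKM (SD, n = 3) for Man2a2, 20.8 ± 1.68 for Unc45a, 10.0 ± 0.539 for Ngrn, 3.81 ± 0.534 for Rccd1, 3.31 ± 0.425 for Sema4b and 1.07 ± 0.119 for Hddc3. Man2a2 and Unc45a overlapped, as did Rccd1 and Sema4b. Among the 10890 genes with a mean of at least 1 RPKM in some group, Man2a2 stood at the 74.1 percentile in WT control and Hddc3 at the 3.39 percentile. In KO control Ngrn, at 15.7 ± 0.139 RPKM (SD, n = 3), lay above Man2a2 at 12.4 ± 2.04, and Hddc3 at 4.16 ± 0.909 overlapped with Sema4b at 4.97 ± 0.970. After TGF-β2 Unc45a had the highest mean and Hddc3 the lowest in both genotypes. The order depends on the gene length used. With exons of all transcripts, the mean of Rccd1 was 1.62 RPKM in WT control and 2.38 in KO control, below Sema4b at 2.36 and 3.55, and in KO control also below Hddc3 at 3.37. Man2a2 then had 13.7 RPKM in WT control, below Unc45a at 15.2, and 8.08 in KO control.

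Ratios of counts between neighbours within a library do not depend on how libraries are scaled. The ratio of Hddc3 to Man2a2 counts was 0.0232 ± 0.00339 (SD, n = 3) in WT control and 0.152 ± 0.0116 in KO control, a 6.57-fold difference of geometric means. After TGF-β2 it was 0.0424 ± 0.0190 in WT and 0.185 ± 0.0150 in KO, 4.63-fold apart. The Hddc3 to Unc45a ratio differed 4.78-fold in control and 3.98-fold after TGF-β2, and the Rccd1 to Unc45a ratio 1.84-fold and 2.13-fold. All of these were higher in KO without overlap. The ratio of Rccd1 to Ngrn, both higher in KO, overlapped in both conditions. Ratios of Hddc3 to Ngrn, Sema4b or Rccd1, which were also higher in KO, were not computed. The Ngrn to Sema4b ratio overlapped in control and was 1.16-fold lower in KO without overlap after TGF-β2. These ratios are of genes chosen on the same contrast and were not tested.

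**Figure D3:**
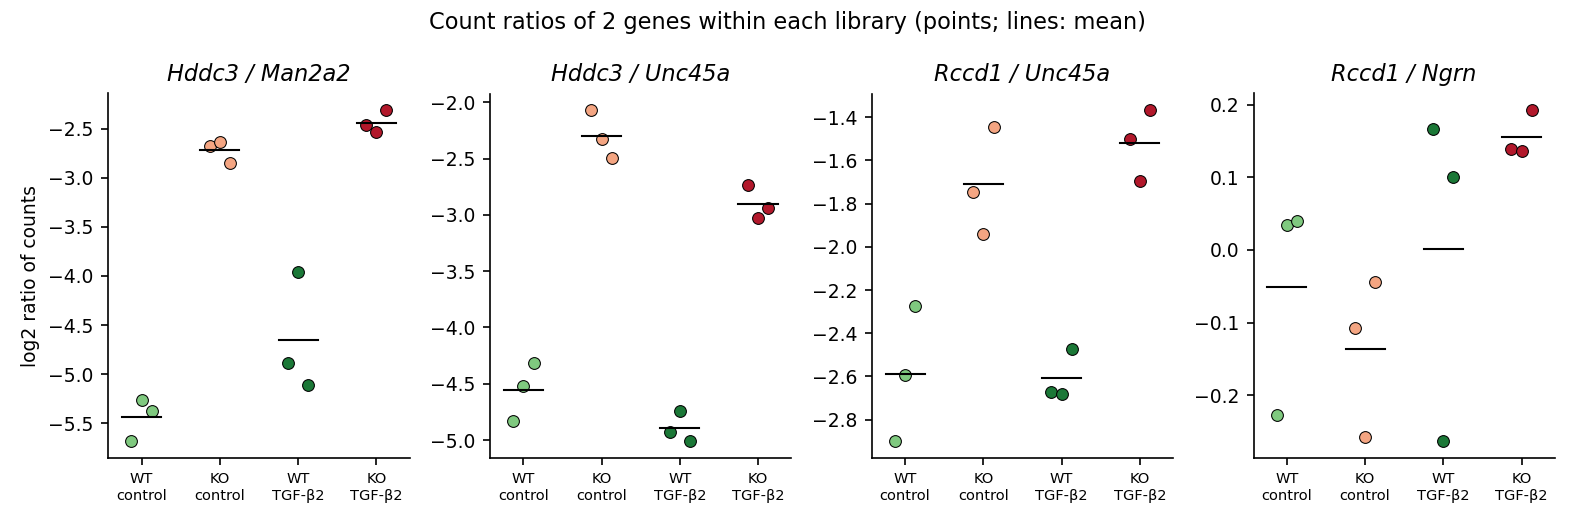
Log2 ratio of the counts of a pair of neighbouring genes within each library, with the 4 groups on the horizontal axis, 1 point per library and a line at the mean of 3 libraries. The Hddc3 to Man2a2, Hddc3 to Unc45a and Rccd1 to Unc45a ratios are higher in every KO library than in every WT library of the same condition, and the Rccd1 to Ngrn ratio overlaps.

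The response to TGF-β2 was tested within each genotype over all genes with a mean of at least 1 RPKM in a group. In WT cells 2 of the 6 genes fell and 0 rose, where 11.7% of 10743 tested genes fell and 12.4% rose at an adjusted p-value under 0.05. These were 1335 higher and 1258 lower genes, against 890 and 1369 with libraries scaled by their totals and 994 and 1401 with upper-quartile scaling. Man2a2 fell by 0.91 on the log2 scale (SE 0.21, adjusted p = 0.0244, edgeR quasi-likelihood), with all 3 stimulated libraries below all controls. Sema4b fell by 0.64 (SE 0.14, adjusted p = 0.0207), also without overlap. Both calls were lost in some fits with 1 library left out. The adjusted p of Man2a2 was 0.0756, 0.0640 and 0.0603 without WT control replicate 1, 2 or 3. That of Sema4b was 0.0807 and 0.0764 without WT control replicate 1 or 2 and 0.0698 without WT stimulated replicate 1. In these same fits the log2 fold change was -0.90, -0.94 and -0.94 for Man2a2 and -0.57, -0.62 and -0.67 for Sema4b. These fits called 520 to 608 genes higher and 712 to 840 lower over the whole table.

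The other four genes did not pass in WT. Hddc3 had a log2 fold change of -0.16 (SE 0.17, adjusted p = 0.537) and its WT libraries overlapped between control and TGF-β2. Rccd1 had 0.15 (adjusted p = 0.413), Unc45a 0.17 (adjusted p = 0.261) and Ngrn 0.11 (adjusted p = 0.543). Across the 6 genes the median log2 fold change was -0.02, against 0.02 over all genes tested.

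In Nox4 KO cells 1 of the 6 genes fell and 0 rose, where 14.9% of 10809 tested genes fell and 15.1% rose. These were 1637 higher and 1606 lower genes, against 1044 and 2119 by totals and 1216 and 1969 by upper quartile. Man2a2 fell by 0.83 on the log2 scale (SE 0.15, adjusted p = 0.0126), but the adjusted p was 0.0569 without KO stimulated replicate 2. In that fit its log2 fold change was -0.83, and 572 genes were called higher and 562 lower over the whole table. Hddc3 had a log2 fold change of -0.56 (SE 0.19, adjusted p = 0.0693) and Sema4b -0.50 (SE 0.16, adjusted p = 0.0644), and both were lower in all 3 stimulated libraries than in all 3 controls. Without KO control replicate 3 both were called, with adjusted p = 0.0193 for Hddc3 and 0.0232 for Sema4b. Without any other single library neither was called, with adjusted p between 0.107 and 0.200 for Hddc3 and between 0.0877 and 0.195 for Sema4b. Rccd1 had 0.26 (adjusted p = 0.0915), Unc45a 0.06 (adjusted p = 0.650) and Ngrn -0.03 (adjusted p = 0.789). The median over the 6 genes was -0.26, against -0.01 over all genes tested.

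Within Nox4 KO, control and stimulated libraries with the same replicate number departed from their groups in a common way, so the number was also fitted as a block. With this replicate block 3 of the 6 genes fell in KO and 1 rose. Hddc3 fell by 0.55 (adjusted p = 0.0174), Sema4b fell by 0.48 (adjusted p = 0.0328) and Man2a2 fell as before, whereas Rccd1 rose by 0.26 (adjusted p = 0.0189). The block called 2729 genes higher and 3113 lower over the whole table. Hddc3 was thus lower after TGF-β2 in KO cells in the paired fit. It was not called in WT, and whether the responses of the 2 genotypes differed was not tested. The comparisons of KO against WT in control and of TGF-β2 in KO share the KO control libraries.

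**Figure D4:**
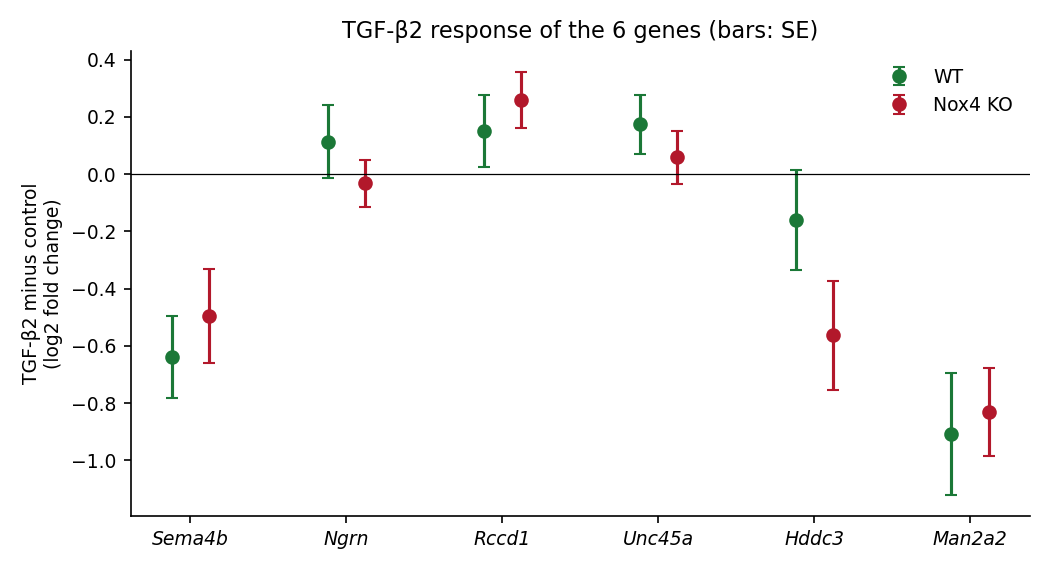
Log2 fold change of TGF-β2 against control for each of the 6 genes on the horizontal axis, in WT (green) and Nox4 KO (red), with bars of 1 SE from 3 against 3 libraries fitted without the replicate block. Man2a2 has the lowest value in both genotypes (-0.91 and -0.83), and Ngrn, Rccd1 and Unc45a lie between -0.03 and 0.26.

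Of the other 6 genes of the table in the region, 4 overlapped between genotypes in both conditions. Cib1, which encodes a calcium- and integrin-binding protein, Vps33b, involved in vesicle trafficking, Prc1, a microtubule-bundling protein of cytokinesis, and Ttll13, which stayed below 1 RPKM, made up these 4. Cib1 and Vps33b lie between Sema4b and Rccd1, and their log2 fold changes in control were 0.03 (SE 0.08) and -0.06 (SE 0.09). Gdpgp1 was lower in KO without overlap in both conditions, by -0.32 and -0.29 on the log2 scale, with control means of 1.27 ± 0.138 RPKM (SD, n = 3) in WT and 1.04 ± 0.0153 in KO. Fes, a tyrosine kinase gene beyond Man2a2, was lower without overlap in control (-0.22) and overlapped after TGF-β2. As for the whole table, where 0% passed, edgeR called none of the 5 that were tested for KO against WT. Fes fell with TGF-β2 by 0.95 on the log2 scale in WT (adjusted p = 0.00492) and by 0.91 in KO (adjusted p = 0.00326), as Man2a2 did next to it.

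Within 1 Mb of the start of Hddc3, by lower coordinate, there were 35 other genes in the table, of which 24 were tested for KO against WT. In control 2 of these were higher and 4 lower without overlap, and after TGF-β2 2 were higher and 2 lower. Over all genes tested these shares were 10.9% and 2.74% in control and 4.16% and 5.92% after TGF-β2. Their median absolute log2 fold change was 0.20 in control and 0.16 after TGF-β2, against 0.083 and 0.13 over all genes tested. For the 6 chosen genes it was 0.58 and 0.67. They were chosen on this contrast, so nothing is read from their larger values. The 3 other genes with the largest differences in control were Ticrr, a DNA replication gene, at 0.52 (SE 0.47), Prc1 at 0.49 (SE 0.55) and Idh2, the mitochondrial NADP-dependent isocitrate dehydrogenase, at 0.35 (SE 0.26). The SE was near the size of the difference for Ticrr and above it for Prc1. Under TGF-β2, 1 of 23 tested neighbours rose and 3 fell in WT, and 4 of 24 rose and 4 fell in KO. Over all genes 12.4% rose and 11.7% fell in WT, and 15.1% and 14.9% in KO.

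**Figure D5:**
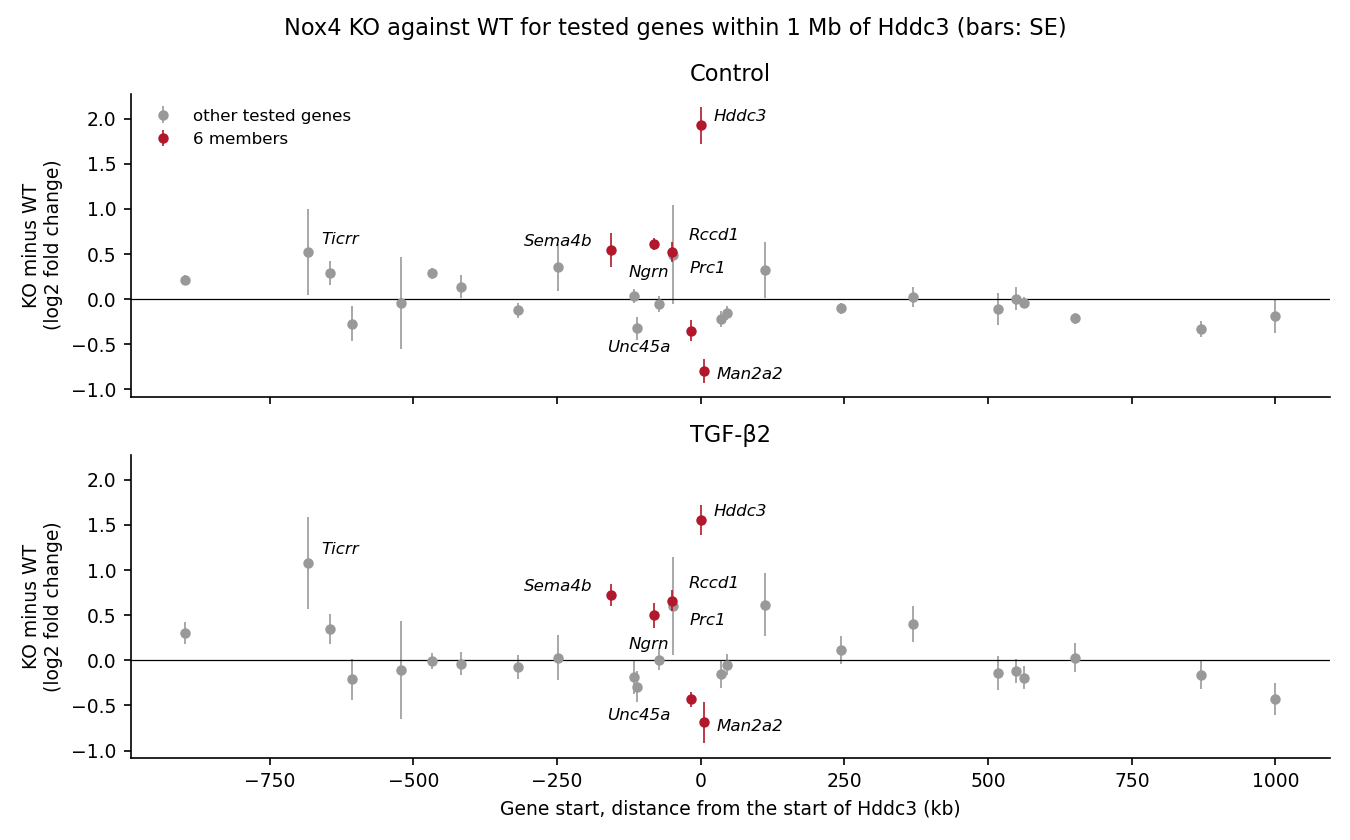
Log2 fold change of Nox4 KO against WT for tested genes with a lower coordinate within 1 Mb of the start of Hddc3, plotted against the distance in kb, in control (top) and after TGF-β2 (bottom), with bars of 1 SE. For genes of the minus strand, such as Man2a2, the lower coordinate is the end of transcription. The 6 chosen genes (red) are placed between -156.3 kb (Sema4b) and 6.0 kb (Man2a2), and among the 24 others (grey) Ticrr and Prc1 have high values with wide bars.

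Hddc3 was compared with every other expressed gene by the correlation of log2(CPM + 0.5), where CPM is the count scaled by the library total, over the 12 libraries. The libraries fall into 4 groups and share their totals, and the correlation is a description. Of 10889 genes, Ngrn had the highest Pearson r (0.922), followed by Bnc1, a zinc finger gene (0.912), Cap2, an actin regulator (0.905), S100g (0.879) and Inf2, a formin (0.861). Sema4b ranked 17 (0.819) and Rccd1 ranked 19 (0.811). The lowest values were those of Pcdh1 (-0.890), Unc45a (-0.817), Whamm (-0.806), Ankrd42 (-0.801) and Nr1d1 (-0.797), whereas Man2a2 had -0.358. Since the 6 genes were chosen for their difference between genotypes, their place in this order follows in part from the choice.

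Bnc1, Whamm and Ankrd42 are not among the 6 genes but also lie on chromosome 7, with lower coordinates of 81966672, 81571266 and 92581723. Chromosome 7 held 5 of the 20 highest and 7 of the 20 lowest correlations, against 7.53% of all genes compared. These counts include the chosen genes Ngrn, Sema4b, Rccd1 and Unc45a. The control mean of Bnc1 was 0.534 ± 0.333 RPKM (SD, n = 3) in WT and 2.03 ± 0.862 in KO, and after TGF-β2 it was 0.312 ± 0.0635 and 1.13 ± 0.468. Its KO libraries had 209 to 524 counts in control against 48 to 160 in WT. S100g was counted only 5 to 7 times per WT control library, so its correlation rests on few reads.

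Genes related to the 6 genes by pathway, family, shared domain or partnership were then examined by list. For KO against WT edgeR called no gene in the lists and no gene in the whole table (0%), so only their medians are given. For the TGF-β2 response, the counts below stand against 12.4% of all tested genes rising and 11.7% falling in WT, and 15.1% and 14.9% in KO. Of 9 tested genes of NADP(H) metabolism, the pathway of Hddc3, 1 rose and 3 fell with TGF-β2 in WT, and 1 rose and 2 fell in KO. Idh1, cytosolic isocitrate dehydrogenase, fell by 0.96 and 0.84 on the log2 scale (adjusted p = 0.00451 and 0.00355), and G6pdx, glucose-6-phosphate dehydrogenase, fell by 0.61 and 0.70 (adjusted p = 0.0202 and 0.00375). Noct, which encodes a further NADPH phosphatase, rose by 1.06 and 0.83 (adjusted p = 0.00564 and 0.0370). The median KO against WT log2 fold change of these 9 genes was -0.03 in control and -0.01 after TGF-β2.

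For N-glycan processing, the pathway of Man2a2, 2 of 11 tested genes rose and 2 fell in each genotype, beside 12.4% and 11.7% of all genes in WT and 15.1% and 14.9% in KO. Man2a1, the paralogue of Man2a2 in the Golgi, fell by 1.01 in WT (adjusted p = 0.0116) and by 0.59 in KO (adjusted p = 0.0173). Man1a, a mannosidase acting before it, fell by 1.72 and 1.41 (adjusted p = 0.00778 and 0.0404), whereas the related Man1c1 rose by 0.63 and 0.77 (adjusted p = 0.00631 and 0.00293). Man2a1 and Man2a2 therefore both fell with TGF-β2 in both genotypes. The median KO against WT log2 fold change of the 11 genes was -0.06 in control and 0.06 after TGF-β2.

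The same shares of all genes apply to the remaining lists. Of 10 tested genes of myosin and HSP90 chaperoning, listed for Unc45a, 3 rose and 1 fell in WT and 0 rose and 1 fell in KO. Myh10, non-muscle myosin heavy chain IIB, fell by 1.13 and 0.96 (adjusted p = 0.0152 and 0.0223). Among class 4 semaphorins and their receptors, listed for Sema4b, 1 of 5 tested genes fell in WT and 1 of 6 in KO, and 0 rose. Among 12 genes of mitochondrial ribosomal RNA maturation, listed for Ngrn, 3 rose in WT and 1 in KO, and 0 fell. Of 8 tested genes with RCC1 repeats or encoding KDM8, listed for Rccd1, 0 rose and 1 fell in WT, and 2 rose and 1 fell in KO. Rcbtb2 fell by 0.56 and 0.54 (adjusted p = 0.0103 and 0.0118). The median KO against WT log2 fold change in control and after TGF-β2 was 0.06 and -0.02 for the myosin and HSP90 list and -0.02 and 0.18 for the semaphorin list. It was -0.0033 and -0.07 for the mitochondrial list and -0.0036 and 0.19 for the RCC1 list, against 0.0017 and 0.0020 over all genes tested.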

How the data were processed

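Single-end reads had been aligned by the authors to GRCm38 (STAR 2.4), keeping reads with a single location, and assigned with featureCounts 1.4.6 to a gene model that joins the exons of all protein-coding isoforms. The deposited unit is the raw count of reads per gene, and no strand setting is given. Symbols, positions and merged exon lengths were taken from GENCODE M21, which matched all 21556 genes. RPKM used library totals, between 35118344 and 43796260.

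Each comparison was fitted on its 6 libraries with edgeR 4.0.16 in R 4.3.3, with TMM normalization, the quasi-likelihood test and Benjamini-Hochberg adjustment over all genes with a mean of at least 1 RPKM in a group. Calls needed an adjusted p-value under 0.05 and had no fold limit. The procedure was tested on simulated data. DESeq2 1.42.0, RLE, upper-quartile and total-count scaling, other filters, a fold limit of 2, all 12 libraries, a replicate block and leaving out each library were the alternatives. Gene lengths without shared bases were added after seeing the data.

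Replicate numbers recur in every group. Deviations of same-numbered libraries correlated at 0.763, 0.688 and 0.741 for KO control and KO with TGF-β2, so these numbers pair the samples. This comes from the check, since no source states it. In WT the values were 0.0619, 0.415 and 0.525.

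The genes named were the 6 chosen genes, the other genes of the region, the 3 largest differences within 1 Mb, the 5 highest and 5 lowest correlations with Hddc3, and list genes called in both genotypes, up to 3 per list. The members and lists were chosen with earlier results of these data known.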

Additional observations from a re-analysis of the deposited data

How the results depend on the processing

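The direction of Nox4 KO against WT held for all 6 genes in every alternative fit in both conditions, and the log2 fold change of Hddc3 stayed between 1.78 and 2.10 in control and between 1.47 and 1.64 after TGF-β2, leave-one-out fits included. With RLE scaling 1 gene rather than 2 was lower without overlap after TGF-β2. Genes called for KO against WT numbered 9 higher and 19 lower in control and 8 and 8 after TGF-β2 with DESeq2, and 1 higher in control with all 12 libraries in the fit. Without single libraries there were 0 to 1 lower in control and 0 to 1 higher after TGF-β2.

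For TGF-β2 in WT, a fold limit of 2 left 292 genes higher, 533 lower and 0 of the 6 genes. Leaving out single libraries gave 520 to 1643 higher, 712 to 1756 lower and 0 to 2 of the 6 lower. In KO, the fold limit left 240 higher, 495 lower and 0 of the 6. Library totals gave 1044 higher and 2119 lower (33.0% of calls higher, against 50.5% with TMM), and upper-quartile scaling 1216 and 1969. In WT, library totals gave 890 and 1369. The replicate block in KO called 2729 higher and 3113 lower, with 1 of the 6 higher and 3 lower. DESeq2 (2059 genes higher and 2011 lower over the whole table), library totals and all 12 libraries (1624 and 1366) also called 3 of the 6 lower. Leaving out single libraries gave 572 to 1715 higher, 562 to 1798 lower and 0 to 3 of the 6 lower. In WT the replicate block changed no call of the 6 genes, and for KO against WT it called 0 genes in either condition.

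The direction reversed only for values near 0. The log2 fold change of Ngrn with TGF-β2 in KO was 0.00545 with all 12 libraries, and that of Unc45a was -0.00304 with upper-quartile scaling and -0.0246 with library totals. Leaving out single libraries gave -0.0264 to 0.161 for Ngrn in WT, -0.0868 to 0.0269 for Ngrn in KO and -0.0363 to 0.131 for Unc45a in KO. The mean RPKM of Hddc3 in WT control, WT with TGF-β2 and KO with TGF-β2 was 0.866, 0.744 and 2.16 with exons of all transcripts, and 1.24, 1.07 and 3.09 when only the length omitted bases shared with Man2a2. The exons of all transcripts lowered the control mean of Rccd1 to 1.62 RPKM in WT (3.81 with coding transcripts) and 2.38 in KO (5.61), and that of Man2a2 in KO to 8.08 (12.4). Hddc3 had 90 to 141 counts in WT libraries, and the causes of these shifts were not tested.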
